A study of Mus musculus with 8 samples.

Results

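The genes described here serve DNA replication and mitosis. They were listed by name, as 46 mouse gene symbols, with earlier results of these data known. A gene was counted as measured when at least 1 probe set of the array was annotated to that symbol alone, and 44 of the 46 were, among 12393 genes on the array. Ccnb1 and Cdca8 had no such probe set and were not analysed here. Of the 44 genes, 22 act in replication and 22 in mitosis. They are covered by 80 probe sets, of which 47 belong to replication genes and 33 to mitosis genes.

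The cells were mouse embryonic fibroblasts from embryonic day 11 that had been passaged through crisis, the point at which most primary cultures stop growing. They were either wild type or Med23-/-, lacking a subunit of the Mediator complex that links transcription factors to RNA polymerase II. All cultures spent 16 h in medium with 0.5% serum. Of each genotype, 2 arrays held such starved cells, and 2 held cells that then received 20% serum for 30 min, so that 8 arrays form 4 groups. The labels number the replicates as set 1 and set 2, and nothing in them says that the replicates are separate cultures. The p-values below therefore measure only the spread between these samples, which may be technical. The labels do not say how many embryos or lines stand behind a genotype, so a difference between genotypes and a difference between lines cannot be told apart. The measurements are also of bulk RNA: fewer cycling cells and less RNA per cycling cell cannot be told apart.

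Before a cell divides, it copies its DNA from licensed origins. The Mcm helicase is loaded there by Cdc6 and Cdt1, polymerases extend the new strands around the sliding clamp Pcna, and enzymes such as Rrm2, Tyms and Tk1 supply nucleotides. In mitosis, cyclin-dependent kinase 1 and the Polo and Aurora kinases drive condensation and spindle assembly, the Bub and Mad proteins hold the cell until chromosomes are attached, and Cdc20 and Ube2c then start the destruction of cyclins and securin. Transcription of most replication genes peaks towards S phase and is tied to E2F factors. That of mitosis genes peaks in G2 and M and is tied to promoters with CCAAT boxes, bound by NF-Y, and a cell cycle homology region (CHR), bound by the DREAM and MuvB complexes. Fibroblasts held in low serum leave the cycle, and cells that re-enter it need many hours to reach S phase, far longer than the stimulation used here.

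Values are MAS5 signals, a linear brightness per probe set that the authors scaled to the same trimmed mean on every array. Each gene was represented by its brightest probe set, and a signal is compared only with the same probe set on other arrays. Differences are log2 differences of group means of log2(signal + 16), with the standard error (SE) from a limma fit over all 8 arrays. A gene is said to be higher or lower, or to have risen or fallen, where the Benjamini-Hochberg adjusted p over all 14947 tested probe sets was under 0.05. Some counts are also given at an unadjusted p under 0.05. No share over all genes is given at that threshold, so those counts have no background to be read against. A probe set was tested if at least 2 arrays had it at or above their own 40th percentile, which held for 41 of the 44 genes. Cdc6, Tyms and Cenpe did not. Of the 41, Gins1, Tk1, Bub1 and Ttk passed on wild-type arrays only, so for the counts over the whole lists the count from a fit with no filter, over all 44 genes, is also given.

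Some facts of the arrays bear on what follows. The Med23 probe set read between 3577 and 5410 on the 4 wild-type arrays and between 28 and 132.5 on the 4 knockout arrays, in the direction of the labels; its place relative to the deletion is not known here. The fibroblast markers Col1a1, Vim and Fn1 were bright on all arrays, with Col1a1 between 43588 and 59615. Of the 10 fibroblast markers, 7 reached the 40th percentile in each wild-type group and 9 in each knockout group, and their summed signal was 166870 to 186850 on wild-type arrays and 283480 to 378380 on knockout arrays. Pdgfra, a receptor of mesenchymal cells, was at 13.3 to 129 on wild-type arrays and at 6040 to 15782 on knockout arrays, and Thy1 stayed between 132 and 242 on all arrays. The sums of the epithelial, blood, endothelial and muscle lists stayed between 748 and 1854 on every array, with no marker at exactly 0. The sum of the 5 neural markers was 2142 to 2323 on wild-type and 1335 to 1652 on knockout arrays. Of these, Tubb3, of neuronal microtubules, was at 503 to 653 on wild-type and 15.5 to 93.9 on knockout arrays. Tubb3 passed the filter on wild-type arrays only, and was lower in the knockout by the test in both states. Sox2, not tested, was at 254 to 310 on wild-type and 2.49 to 48.7 on knockout arrays. Col1a2 separated the wild-type sets, at 581 and 743 in set 1 and at 8871 and 9443 in set 2. The part of these differences in the results below was not tested.

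Starved knockout cells had less mRNA of nearly all measured mitosis genes and of most replication genes than starved wild-type cells. Of the 22 mitosis genes, 19 were lower and none was higher, and of the 22 replication genes, 16 were lower and none was higher. At an unadjusted p under 0.05 in the same limma test, 0 genes of either list were higher. Without the filter the counts were 20 and 16. Among all 8446 genes with a tested probe set, 25.2% were lower and 24.3% higher in this comparison, and without the filter 16.6% of 12393 were lower. The median log2 difference was -1.90 for the mitosis genes (3.72-fold lower) and -0.80 for the replication genes (1.74-fold lower), against a median of 0.06 over all 12393 genes. More than 2-fold lower were 19 of 22 mitosis genes and 10 of 22 replication genes, against 9.3% of all genes. Of them, 10 and 2 were more than 4-fold lower, a log2 difference under -2, where the 3rd percentile of all genes was -1.940. Both knockout arrays lay below both wild-type arrays for 21 mitosis and 18 replication genes, against 30.2% of all genes. In fits without both arrays of 1 set in 1 genotype, the count of lower genes was 17 to 20 for mitosis and 11 to 15 for replication, not always of the same genes.

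**Figure D1:**
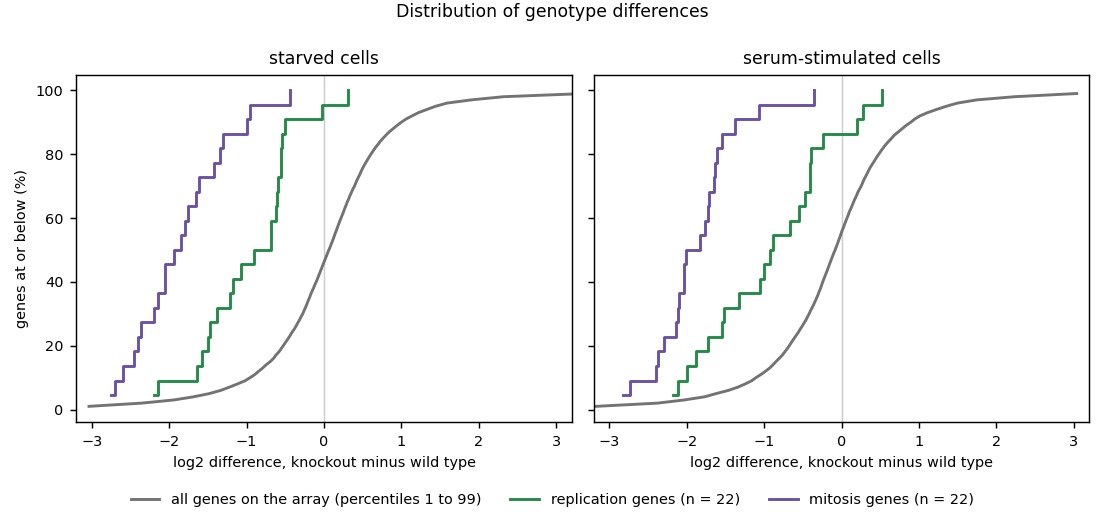
Share of genes at or below each log2 difference between knockout and wild type, in starved cells (left) and serum-treated cells (right), for all 12393 genes and for the 22 replication and 22 mitosis genes. The replication curve lies left of the curve of all genes, with medians of -0.80 starved and -0.90 in serum, and the mitosis curve lies further left, with medians of -1.90 and -1.92.

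Among the markers of dividing chromosomes, Mki67, whose protein coats mitotic chromosomes and is widely used to count cycling cells, had the most negative difference of all members in starved cells. It read 3109 and 3897 on the starved wild-type arrays and 470 and 536 on the starved knockout arrays. In serum it read 2891 and 2923 against 502 and 669. The groups were far apart and did not overlap. The log2 difference was -2.75 ± 0.19 starved (adjusted p = 2.19e-06) and -2.29 ± 0.19 in serum (adjusted p = 8.04e-06). Top2a is the topoisomerase that untangles sister chromatids. Its signals were 6172 and 6147 in starved wild-type cells, 1051 and 1805 in starved knockout cells, 6508 and 5831 in serum-treated wild-type cells, and 918 and 1504 in serum-treated knockout cells. The lowest wild-type signal was thus above every knockout signal, and the log2 differences were -2.15 ± 0.264 (adjusted p = 1.09e-04) and -2.37 ± 0.264 (adjusted p = 5.62e-05). The size depended on the processing: over the alternatives listed at the end, it ran from -2.53 to -0.92 starved and from -2.73 to -0.88 in serum.

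All 4 spindle checkpoint genes were lower in the knockout in both serum states, with and without the filter. Bub1, a kinase of unattached kinetochores, read 2015 and 2303 in starved wild-type cells and 217 and 461 in starved knockout cells, and in serum 1742 and 1416 against 283 and 286. Its log2 differences were -2.70 ± 0.303 and -2.40 ± 0.303. Bub1b, which encodes the BubR1 part of the mitotic checkpoint complex, read 2163 and 2540 against 311 and 556 starved, and 2253 and 2370 against 203 and 549 in serum. Wild-type and knockout arrays did not overlap for either gene. Ttk, the Mps1 kinase upstream of both, read 1036 and 1129 against 324 and 255.9 starved, and 987 and 820 against 211 and 382 in serum. Mad2l1, which binds and holds Cdc20, had smaller differences, at -1.35 ± 0.238 and -1.63 ± 0.238.

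Cenpa, the histone H3 variant that marks the centromere, read 1886 and 1920 in starved wild-type cells and 232 and 390 in starved knockout cells, and in serum 1642 and 2124 against 136 and 455. Its log2 differences were -2.60 ± 0.445 (adjusted p = 9.02e-04) and -2.82 ± 0.445 (adjusted p = 5.33e-04). The knockout arrays of set 2 were above those of set 1, yet far below any wild-type array. Cenpe, the kinesin of the kinetochore, was too dim for the filter; its 4 wild-type signals were 337 to 433 and its 4 knockout signals 47.7 to 192. In the fit without the filter its adjusted p was 0.049 starved and 0.0275 in serum.

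The kinases and cyclins of mitosis did not share 1 size of difference. Ccna2, the cyclin of S phase and early mitosis, had log2 differences of -2.40 ± 0.175 starved and -2.04 ± 0.175 in serum. Plk1, the Polo kinase, read 1754 and 2407 in starved wild-type cells and 466 and 586 in starved knockout cells, and in serum 1298 and 1794 against 398 and 521. Those groups did not overlap, and the differences were -1.94 and -1.71 (SE 0.245). Cdk1, the catalytic partner of the mitotic cyclins, read 5101 and 5411 against 2640 and 2731 starved, and 5447 and 5164 against 1290 and 1696 in serum. Its log2 differences were -0.96 ± 0.147 and -1.83 ± 0.147. Ccnb2, a B-type cyclin, was the mitosis gene nearest to wild type. Its log2 differences of -0.44 and -0.36 (SE 0.358) did not pass the test, with adjusted p of 0.345 and 0.425, and its arrays overlapped.

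In the chromosomal passenger complex, Aurkb is the kinase and Birc5 (survivin) a partner that brings it to centromeres. Aurkb read 965 and 886 in starved wild-type cells and 351 and 597 in starved knockout cells. These arrays do not overlap, but the log2 difference of -0.99 ± 0.392 did not pass the test (adjusted p = 0.0609). In serum Aurkb read 929 and 855 against 205 and 529, and was lower by the test (-1.38 ± 0.392, adjusted p = 0.0143). Birc5 was lower in both states, at -1.62 and -1.54, and Aurka, the Aurora kinase of spindle poles, at -2.05 and -2.14.

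The 5 spindle and midzone genes, and both genes that work with the anaphase promoting complex, were lower in both states, with and without the filter. Kif20a, a kinesin of the midzone, read 1276 and 1510 in starved wild-type cells and 304 and 600 in starved knockout cells, and in serum 1290 and 1176 against 178 and 412. Prc1, the protein that bundles midzone microtubules, read 2810 and 3414 against 460 and 963 starved, and 2759 and 2396 against 528 and 657 in serum. Neither gene's groups overlapped. Their differences were -1.66 and -2.11 (SE 0.386) for Kif20a and -2.19 and -2.10 (SE 0.292) for Prc1. Nusap1, Tpx2 and Kif11, which build or bind spindle microtubules, had starved differences of -2.36, -2.06 and -1.30. A dim, untested probe set of Nusap1 gave 0.80 starved and -0.14 in serum, and with the mean over both probe sets its starved difference was -0.78 (adjusted p = 0.075). Ube2c, the ubiquitin-conjugating enzyme that works with the anaphase promoting complex, read 3721 and 4805 against 1014 and 2421 starved, and 4007 and 3852 against 919 and 1679 in serum. The wide gap between its knockout arrays gave an SE of 0.368 on differences of -1.42 and -1.65. Cdc20, the activator of that complex, had tighter replicates, with -1.76 and -1.72 (SE 0.148).

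**Figure D2:**
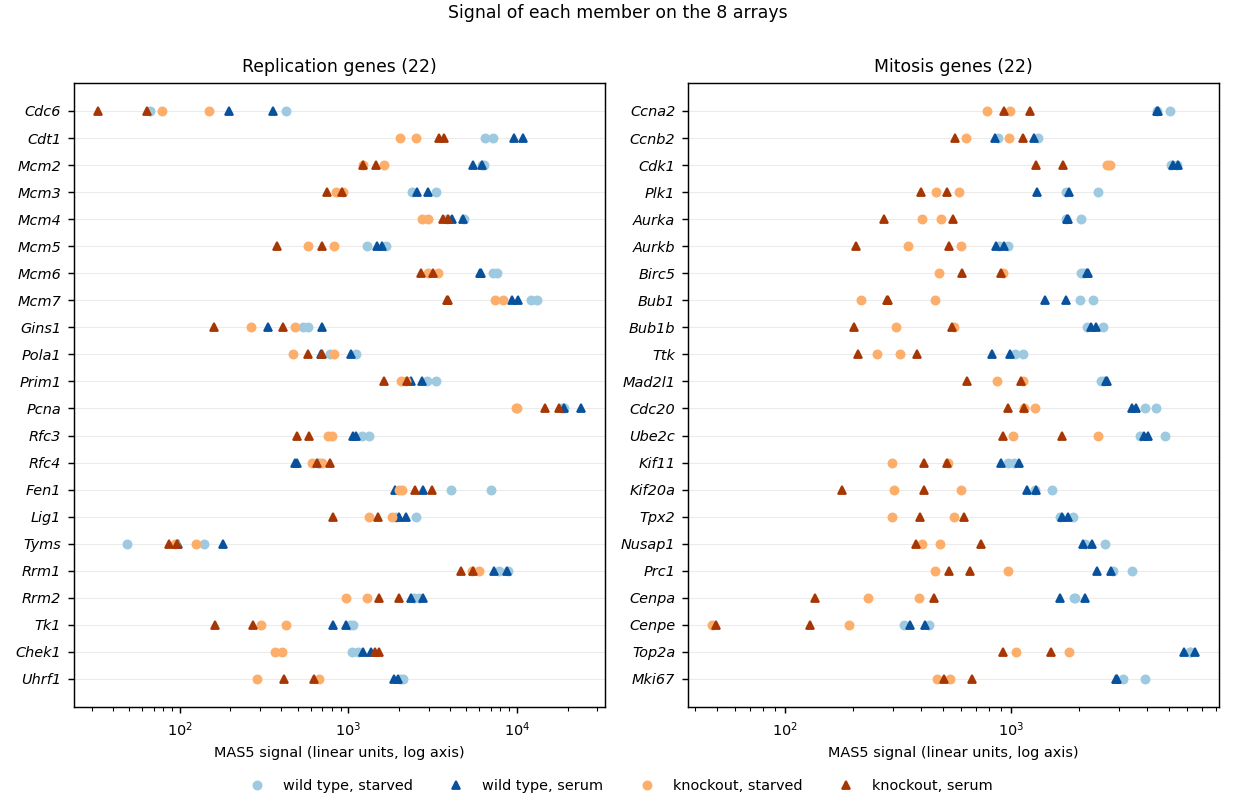
MAS5 signal (log axis) on each of the 8 arrays for the brightest probe set of each of the 22 replication and 22 mitosis genes. Each point is 1 array, coloured by group. For Mki67, Top2a, Bub1, Bub1b and Cenpa the 4 knockout points lie below the 4 wild-type points, while Chek1 in serum-treated knockout cells lies at 1529 and 1450, above its wild-type arrays.

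In serum-treated cells the differences between genotypes ran the same way. Of 22 mitosis genes 20 were lower and 0 higher, and of 22 replication genes 13 were lower and 0 higher; without the filter, 21 and 12 were lower. At an unadjusted p under 0.05, 0 mitosis genes and 1 replication gene, Rfc4, were higher in the limma test. Of all 8446 genes with a tested probe set, 28.5% were lower and 23.1% higher, and without the filter 18.9% were lower. Median log2 differences were -1.92 and -0.90, against -0.08 for all genes. More than 2-fold lower were 21 mitosis and 10 replication genes, against 11.7% of all genes, and knockout and wild-type arrays lay apart in that direction for 21 and 17, against 37.9%. In fits without both arrays of 1 set in 1 genotype, the count of lower genes was 18 to 20 for mitosis and 10 to 14 for replication. The starved and the serum comparison use different arrays, but share the genotypes, the set numbers and the fit. They are therefore not independent, and a difference between lines would appear in both.

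Within the replication list, the 9 genes of origin licensing and the helicase had median differences of -1.07 starved and -1.52 in serum. Mcm2, a helicase subunit, read 6362 and 6217 in starved wild-type cells and 1619 and 1222 in starved knockout cells, and in serum 5472 and 6224 against 1222 and 1460. The log2 differences were -2.15 ± 0.164 (adjusted p = 4.36e-06) and -2.11 ± 0.164 (adjusted p = 5.11e-06). Mcm3, another subunit, read 3322 and 2388 against 936 and 846 starved, and 2991 and 2566 against 745 and 912 in serum. In both genes the lowest wild-type array was more than 2-fold above the highest knockout array. The subunits did not move by equal amounts: the starved differences of Mcm6, Mcm5, Mcm7 and Mcm4 were -1.22, -1.07, -0.69 and -0.60, and in serum Mcm4 was at -0.24 and did not pass the test (adjusted p = 0.194).

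Cdt1, which loads the helicase with Cdc6, read 7234 and 6456 in starved wild-type cells, 2038 and 2540 in starved knockout cells, 10914 and 9601 in serum-treated wild-type cells, and 3698 and 3442 in serum-treated knockout cells. The groups are ordered by genotype first and by serum second. The genotype differences were -1.58 ± 0.141 and -1.52 ± 0.141. Cdc6 was dim, with 426 and 66.6, 358 and 196 on wild-type arrays and 32.8 to 150 on knockout arrays, and was not tested. Gins1, of the active helicase, passed the filter on wild-type arrays only and had differences of -0.62 and -0.88 that did not pass the test (SE 0.479).

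At the fork most differences lay nearer to 0. The median over the 7 genes of polymerase, clamp and Okazaki fragment processing was -0.56 starved and -0.41 in serum. Fen1, described further on, was the exception in starved cells, where it was lower at -1.38. It had no call between genotypes in serum. Pcna was lower in both states, at -0.90 ± 0.131 and -0.41 ± 0.131, and so was the clamp loader subunit Rfc3, at -0.69 and -1.00 (SE 0.18). Rfc4, of the same loader, was at -0.03 and 0.52 and Pola1, the catalytic subunit of polymerase alpha, at -0.56 and -0.40; neither passed. Lig1, the ligase that joins Okazaki fragments, was lower in serum alone by the test (-0.92, adjusted p = 0.0181; starved -0.50, adjusted p = 0.162), and the primase subunit Prim1 starved alone (-0.56, adjusted p = 0.0219; serum -0.41, adjusted p = 0.0721). Neither gene passed the test of the difference between states.

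Among the genes of nucleotide supply, Tk1, thymidine kinase, read 1060 and 1030 in starved wild-type cells and 303 and 427 in starved knockout cells, and in serum 970 and 812 against 271 and 161. Its differences were -1.50 and -2.00 (SE 0.292). Rrm2, the cycling subunit of ribonucleotide reductase, was at -1.17 and -0.55 (SE 0.189), and Rrm1, its partner, at -0.54 and -0.66 (SE 0.137). Tyms, thymidylate synthase, was not tested: its signals were 48.7 to 180 on wild-type and 86.5 to 125 on knockout arrays, near the floor of the array in all groups. Uhrf1, which guides maintenance methylation behind the fork, read 2029 and 2124 against 287 and 669 starved, and 1857 and 1977 against 413 and 627 in serum. With -2.20 ± 0.335 and -1.88 ± 0.335 it had the most negative starved difference of the replication list, and its groups did not overlap.

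**Figure D3:**
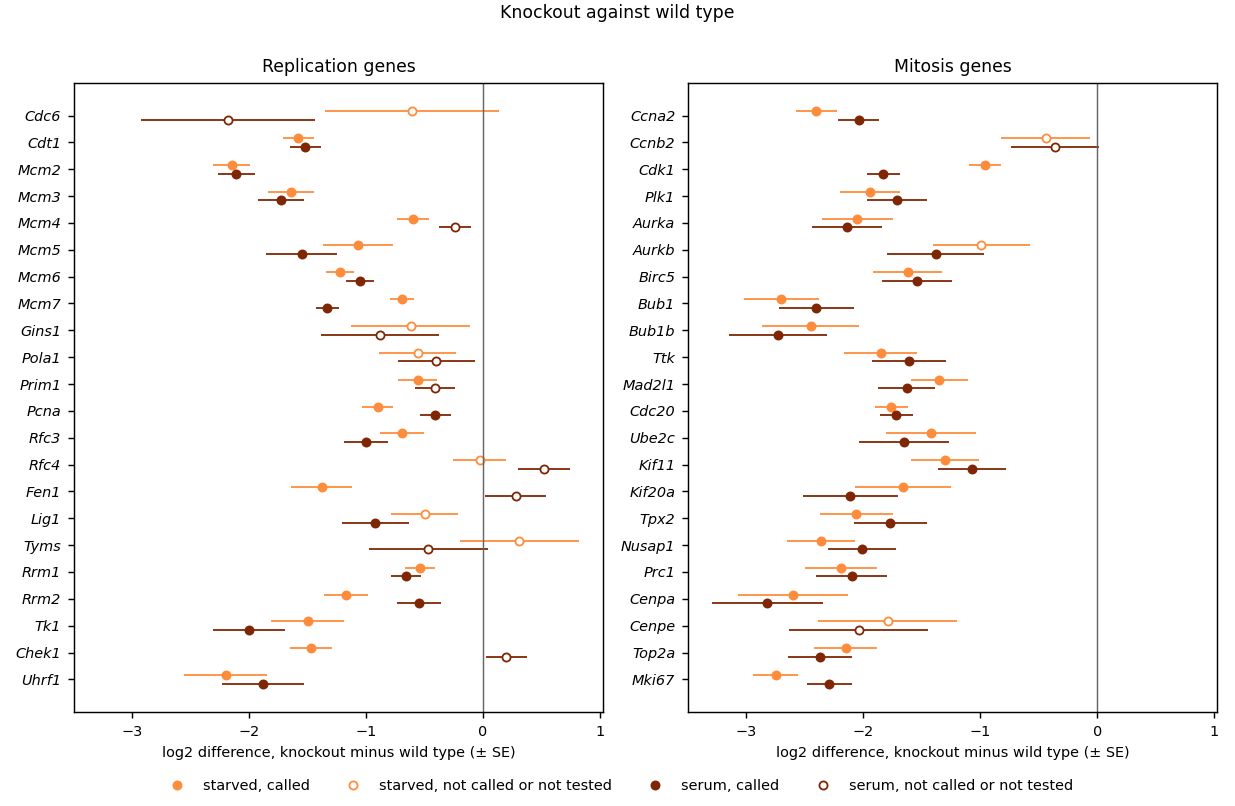
Log2 difference between knockout and wild type for each of the 44 genes, starved and in serum, with bars of 1 SE from the fit without the filter on low signals; negative values are lower in the knockout. Mitosis genes lie mostly between -1 and -3, replication genes are spread from near 0 to about -2, and in starved cells Rfc4, Tyms and Ccnb2 lie closest to 0, at -0.03, 0.31 and -0.44.

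Some of these calls rest on 1 array. In starved cells, leaving out the wild-type array of set 1 ended the calls of Mcm4 (adjusted p = 0.0711), Mcm5 (0.0843), Prim1 (0.125), Rfc3 (0.0678) and Rrm1 (0.0636). The call of Ube2c was lost without the wild-type array of set 2 (-1.24, adjusted p = 0.0639) or the knockout array of set 1 (-0.80, adjusted p = 0.0634), and Mcm5 and Prim1 also lost theirs without that knockout array (0.0743 and 0.0785). Prim1 reached 0.0508 without the knockout array of set 2, and there Aurkb (0.0416) and Pola1 (0.0436) became lower. In serum, Lig1, Rrm2, Aurkb and Kif11 lost their calls without the wild-type array of set 1 (0.052, 0.172, 0.0667 and 0.0618) and without the knockout array of set 1 (0.159, 0.23, 0.11 and 0.0649). Pcna lost its call without the wild-type array of set 1 (0.2) or the knockout array of set 2 (0.192), and Lig1 without the wild-type array of set 2 (0.0837). Without the knockout array of set 2, Gins1 (0.0395) and Prim1 (0.0264) became lower. Scaling also decided calls in serum: Pcna lost its call with median centring (-0.25, adjusted p = 0.175) and Rrm2 with median centring (0.0919) and quantile normalization (0.0716), and under these scalings Rfc4 became higher (0.69, adjusted p = 0.0177, and 0.70, adjusted p = 0.0147). Without the mean-variance trend Pcna (0.0639) and Rrm2 (0.0505) lost their calls and Rfc4 was higher (0.0187). For Aurkb and Kif11 in serum, the difference without the knockout array of set 1 was -0.73 and -0.91.

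The knockout replicates stood apart from each other in the mitosis genes. The set 2 array was above the set 1 array for 20 of 22 mitosis genes in starved and 22 of 22 in serum-treated knockout cells, with median log2 differences of 0.73 and 0.74. Over all genes the share was 53.7% and 55%. For the replication genes it was 15 and 16 of 22, with medians of 0.20 and 0.24. In wild-type cells the median for the mitosis genes was 0.19 starved and -0.04 in serum. The gap between the knockout sets was thus smaller than the difference between genotypes. The ratio of 3' to 5' probe sets of the transferrin receptor control was 3.06 and 1.89 in the starved knockout sets and 2.77 and 2.34 in the serum-treated ones, while wild-type arrays gave 2.57 to 4.23; its part in the gap was not tested.

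Promoter sequences are shown for 6 members, because the counts of known cell cycle elements upstream of the start differ between the lists. They are from RefSeq (build GRCm38.p6), and 38 of the 44 genes matched an entry with a sequence. Searched were the 250 bases before the start, on both strands, for CCAAT and for the CHR core TTTGAA. For E2F the form TTCCCGC was searched, and beside it the variant form TTGGCGC, the variant form TTCGCGC and the further variant form TTGCCGC. Printed are the 150 bases before the start, 5' to 3' on the gene's strand, with every match of either strand in capitals; ATTGG is CCAAT and TTCAAA the CHR core read on the other strand. Top2a (chr11:99024190-99024339, minus strand), Ube2c (chr2:164769779-164769928, plus) and Cdk1 (chr10:69352913-69353062, minus) are mitosis genes. They all belong to the 7 of 18 mitosis promoters with both CCAAT and CHR, and so are not typical of the list. Birc5, Mad2l1 and Nusap1, not shown, had no match of any kind. Mcm6 (chr1:128359706-128359855, minus), Mcm7 (chr5:138171884-138172033, minus) and Chek1 (chr9:36726659-36726808, minus) are replication genes, and the last 2 are members whose serum responses are described further on.
Top2a: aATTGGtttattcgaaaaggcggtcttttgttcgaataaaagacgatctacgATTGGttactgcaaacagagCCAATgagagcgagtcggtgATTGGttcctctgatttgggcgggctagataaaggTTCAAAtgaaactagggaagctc
Ube2c: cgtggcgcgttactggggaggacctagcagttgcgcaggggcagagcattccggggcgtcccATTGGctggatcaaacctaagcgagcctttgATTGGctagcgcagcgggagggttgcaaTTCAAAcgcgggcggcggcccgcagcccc
Cdk1: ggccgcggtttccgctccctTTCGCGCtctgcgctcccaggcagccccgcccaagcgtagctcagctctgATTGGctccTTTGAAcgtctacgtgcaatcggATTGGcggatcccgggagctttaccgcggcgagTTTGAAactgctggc
Mcm6: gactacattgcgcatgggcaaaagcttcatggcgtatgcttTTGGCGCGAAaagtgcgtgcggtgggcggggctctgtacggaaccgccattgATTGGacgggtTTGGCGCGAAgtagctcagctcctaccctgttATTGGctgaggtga
Mcm7: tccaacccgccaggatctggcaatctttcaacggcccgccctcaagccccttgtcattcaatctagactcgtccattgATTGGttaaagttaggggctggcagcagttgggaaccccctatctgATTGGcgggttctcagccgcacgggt
Chek1: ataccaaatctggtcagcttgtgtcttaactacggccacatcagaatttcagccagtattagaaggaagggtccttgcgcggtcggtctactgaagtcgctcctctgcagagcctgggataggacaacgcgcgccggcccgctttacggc
Matches to CCAAT were found in 15 of 18 mitosis promoters (83.3%) and in 12 of 20 replication promoters (60%), against 35.8% of 9887 promoters of genes on the array. The CHR core was in 7 of the 18 (38.9%) and 2 of the 20 (10%), against 11.6%. All 7 of those mitosis promoters also held CCAAT, against 4.13% of promoters on the array with both. The E2F forms were in 2 of 18 mitosis promoters (11.1%) and in 10 of 20 replication promoters (50%), against 12.3%. In 1 member a CCAAT and an E2F match overlap. The shown sequences carry 4 CCAAT matches and 1 CHR match for Top2a, 2 and 1 for Ube2c, and 2 and 2 with 1 E2F match for Cdk1. Mcm6 and Mcm7 also carry 2 CCAAT matches each. Mcm6 has 4 E2F matches that lie in 2 stretches, each stretch matched on both strands, and Mcm7 has none in the shown bases. Chek1 has no match of any kind. A match describes letters and not binding.

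Serum for 30 min left the mitosis genes of wild-type cells without a call: 0 of 22 changed by the limma test, and 0 at an unadjusted p under 0.05. Their log2 differences ran from -0.45 (Bub1) to 0.07 (Birc5), with a median of -0.07 against -0.01 for all genes. Among the replication genes Cdt1 rose and Fen1 fell, and the other 20 had no call. At an unadjusted p under 0.05, 1 gene was higher and 3 were lower, with no share over all genes given at that threshold. Of all genes with a tested probe set, 2.76% rose and 1.98% fell with serum in wild-type cells. Neither call held in the fit without the filter, where 0 of 44 were called, against 1.52% of all genes higher and 0.928% lower. Cdt1 rose by 0.58 ± 0.141 (adjusted p = 0.0495), and without any 1 of 6 arrays, the 4 wild-type ones and the 2 serum-treated knockout ones, its adjusted p was between 0.0856 and 0.263. Its other tested probe set gave 0.56 (adjusted p = 0.0606).

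Fen1, the flap endonuclease that trims Okazaki fragments, read 7008 and 4085 in starved and 2781 and 1892 in serum-treated wild-type cells, and 2012 and 2070 in starved and 3136 and 2496 in serum-treated knockout cells. The starved wild-type arrays were high and far apart from each other. The fall in wild-type cells was -1.22 ± 0.254 (adjusted p = 0.0247), and the call was lost without the starved array of set 1 (-0.83, adjusted p = 0.149) or the serum array of set 2 (-0.94, adjusted p = 0.156). The other probe set of Fen1 read 1994 and 1443 starved and 1645 and 1680 in serum in the same cells, a difference of -0.03. In knockout cells that probe set rose by 0.73 (adjusted p = 0.0185), while the brighter one gave 0.45 (adjusted p = 0.227).

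In knockout cells serum changed 6 members. Among replication genes Chek1, Pcna, Cdt1 and Rrm2 rose and Mcm7 fell, and of the mitosis genes Cdk1 fell. Of all genes with a tested probe set, 8.42% rose and 15.2% fell in this comparison. Without the filter 3 replication genes rose, Rrm2 no longer passing, against 5.22% of all genes, and Mcm7 and Cdk1 fell, against 8.43%. The remaining 21 mitosis genes had no call, with a median over all 22 of -0.18 against -0.14 for all genes. For the replication genes the median was -0.11, and it was 0.04 with arrays centred on their medians, a scaling that removes the shift of -0.14 seen over all genes.

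Chek1, the checkpoint kinase that guards stalled forks, changed most. Its signals in knockout cells were 367 and 404 before and 1529 and 1450 after serum; those in wild-type cells were 1055 and 1137 before and 1364 and 1220 after. Thus the starved knockout arrays were low, and the serum-treated ones lay above all wild-type arrays on this probe set. The rise in knockout cells was 1.91 ± 0.173 (adjusted p = 5.88e-05), 3.76-fold, and the difference from wild type went from -1.47 ± 0.173 starved (adjusted p = 8.17e-05) to 0.20 in serum (adjusted p = 0.351). A dimmer probe set of Chek1 read 230 and 178 starved and 551 and 617 after serum in knockout cells, and rose by 1.46 ± 0.286 (adjusted p = 0.00578). In wild-type cells it read 798 and 553 starved and 532 and 727 after serum, so that on it the serum-treated genotypes overlapped. The other Chek1 probe sets did not pass the filter, with signals between 9.09 and 73.1 on all arrays.

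Pcna rose by 0.69 ± 0.131 in knockout cells (adjusted p = 0.00496), from 10089 and 9902 to 17688 and 14663. Cdt1 rose by 0.65 ± 0.141 (adjusted p = 0.00974), a call lost with the mean over its probe sets, and its other tested probe set rose by 0.86. Both calls were lost without the serum-treated array of set 1 (Pcna 0.0583, Cdt1 0.0757). Rrm2 rose by 0.63 ± 0.189 (adjusted p = 0.0362), while its other probe sets gave 0.34 and 0.57 and did not pass. Its adjusted p rose to 0.22 without the serum array of set 2 and to 0.164 without the starved array of set 1; leaving out a starved wild-type array gave 0.0521 (set 1) or 0.0519 (set 2).

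Mcm7, a helicase subunit, fell by 1.00 ± 0.111 in knockout cells (adjusted p = 2.04e-04), with signals of 8255 and 7389 before and 3843 and 3931 after serum. Wild-type signals were 13099 and 12131 before and 10136 and 9414 after, a difference of -0.37 that did not pass (adjusted p = 0.106). All 4 probe sets of Mcm7 fell in the knockout, by log2 differences of -1.00, -1.81, -0.69 and -0.77. The one with -1.81 read 4897 and 4985 starved and 1261 and 1543 in serum. Cdk1 fell by 0.85 ± 0.147 (adjusted p = 0.00299), from 2640 and 2731 to 1290 and 1696, and gave 0.01 in wild-type cells. It has 1 probe set on the array.

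**Figure D4:**
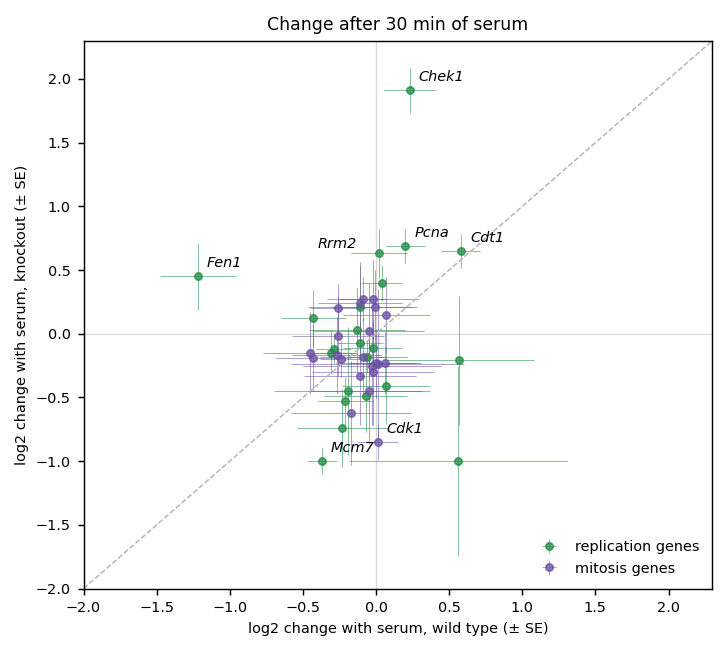
Log2 change with serum in knockout cells against that in wild-type cells for the 44 genes; bars are 1 SE from the fit without the filter on low signals, and the diagonal marks equal change. Most genes lie near the origin, Chek1 lies high at 1.91 against 0.23, Fen1 lies left at 0.45 against -1.22, and Mcm7 and Cdk1 lie low at -1.00 and -0.85 in knockout cells; the unnamed points at the lower right, with wide bars, are the dim and untested Cdc6 and Tyms.

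Whether serum acted differently in the genotypes was tested as an interaction, the change in knockout minus the change in wild-type cells. Of the replication genes Chek1 (1.68 ± 0.244, adjusted p = 0.00666) and Fen1 (1.67 ± 0.359, adjusted p = 0.0412) passed, and of the mitosis genes 0, against 1.56% of genes higher and 1.16% lower overall. At an unadjusted p under 0.05 in the limma test, 4 replication genes were higher and 1 lower, and 0 mitosis genes were higher and 1 lower. The shares over all genes above are for the adjusted p, and none is given for the unadjusted p. Without the filter Chek1 alone passed, against 0.775% of genes higher. The second tested probe set of Chek1 gave 1.55 ± 0.404 (adjusted p = 0.0762), and that of Fen1 0.76 ± 0.26 (adjusted p = 0.158). Chek1 lost its call with the mean over its probe sets, and also when probe sets with a letter suffix were left out. Fen1 lost its call without any 1 of 6 arrays, at adjusted p between 0.0699 and 0.158. Chek1 kept its call without each single array, but not without both set 1 arrays of the knockout (0.0612) or of wild type (0.0633), or both set 2 arrays of wild type (0.117). For Mcm7 the brightest probe set gave -0.64 (adjusted p = 0.0654), and the probe set with the -1.81 fall gave -1.54 ± 0.187 (adjusted p = 0.00315). The interaction for Cdk1, -0.87, had an adjusted p of 0.0593, and 0.0475 without the serum-treated knockout array of set 2.

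**Figure D5:**
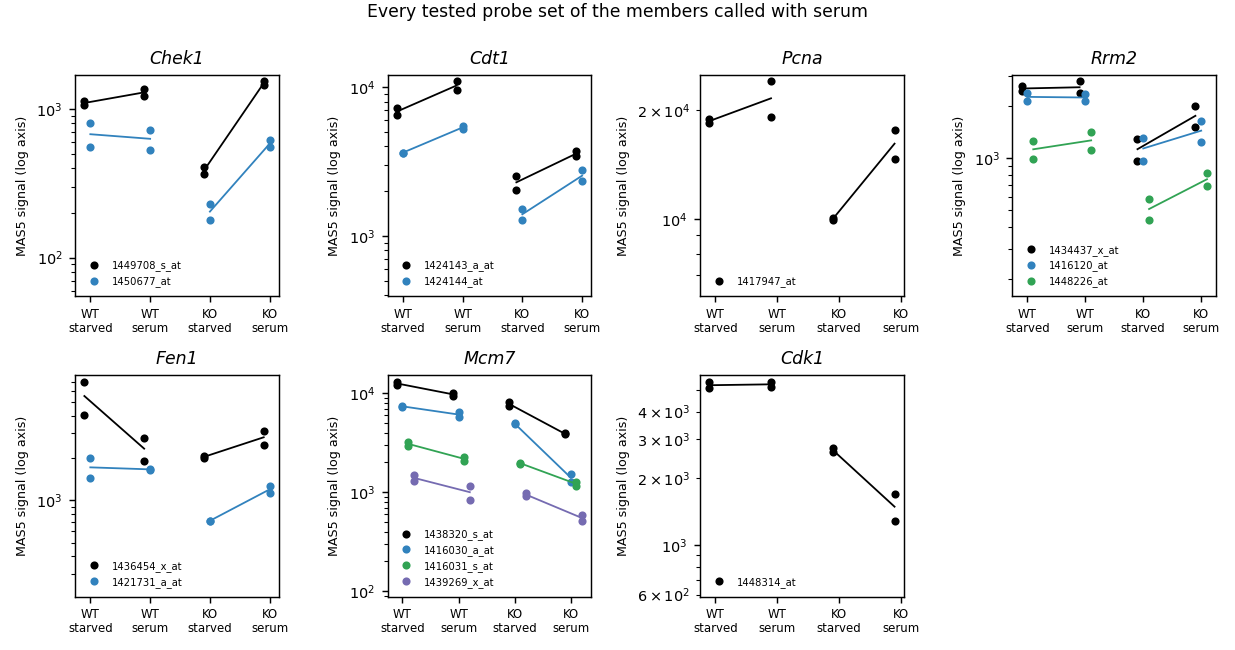
MAS5 signal (log axis) of every tested probe set of the 7 genes with a serum call, in the 4 groups; points are arrays and lines join the group means within a genotype. Both probe sets of Chek1 rise and all 4 of Mcm7 fall in knockout cells, while the fall of Fen1 in wild-type cells is seen in 1 of its 2 probe sets.

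The other genes of these pathways on the array were also lower in the knockout more often than higher. The shares over all tested genes are those given above, 25.2% lower and 24.3% higher starved and 28.5% and 23.1% in serum. Of 43 further replication genes, of which 42 were tested, 27 were lower and 2, Orc3 and Gins4, were higher in starved knockout cells (median -0.78), and 26 were lower and 1, Orc3, was higher in serum (median -0.94); without the filter 26 and 25 were lower and 1 and 1 higher. Of 63 further mitosis genes, 58 of them tested, 41 were lower and 2, Cdc26 and Cdc23, were higher starved (median -1.30), and 42 were lower and 1, Ube2s, was higher in serum (median -1.40); without the filter 43 and 43 were lower and 1 and 1 higher. Pole, the catalytic subunit of polymerase epsilon, read 1599 and 1225 on starved wild-type arrays and 18.5 and 39.3 on starved knockout arrays, and 1332 and 879 against 19.6 and 23.1 in serum. Pole was lower by the test in both states (adjusted p = 8.89e-06 and 1.09e-05). Its knockout signals lie far below the 40th percentile of those arrays. Pole thus passed the filter on wild-type arrays only, and no size of the difference is given. Dbf4, which activates the Cdc7 kinase at origins, was at -3.03 starved, Rfc5 of the clamp loader at -1.90, and Dnmt1, the maintenance methylase, at -1.11 in serum. Among mitosis genes, Cks2, a partner of Cdk1, was at -2.28 and -1.44, Stmn1, a microtubule destabiliser, at -2.57 and -2.41, Pttg1, securin, at -1.70 and -1.83, and Smc2, of condensin, at -1.81 and -1.64.

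Of 18 regulators of these genes, 14 were tested. Of these, 4 were higher and 6 lower in starved and 5 higher and 5 lower in serum-treated knockout cells, with the same counts without the filter, beside 24.3% higher and 25.2% lower starved and 23.1% and 28.5% in serum among all genes. The pocket proteins Rbl1 and Rbl2 went opposite ways. Rbl1 (p107) read 1840 and 1744 against 427 and 502 starved (-1.92, adjusted p = 5.08e-05) and was at -1.44 in serum. Rbl2 (p130), which is abundant in resting cells and part of the DREAM complex, read 2295 and 2094 against 4016 and 5345 starved (1.07, adjusted p = 3.24e-04) and 1513 and 1393 against 3552 and 3623 in serum (1.30, adjusted p = 9.61e-05). The E2F factors E2f5 and E2f6 were higher at 1.00 and 0.92 and at 1.05 and 0.99, while E2f3 and E2f4 were lower, as given below. Tfdp1, which pairs with E2F factors, was higher in serum (0.44). For the CCAAT-binding factor NF-Y, the subunit gene Nfya was lower in both states (-0.90 and -0.57) and Nfyb was higher in both states (0.85 in each). The other regulators lower in serum were Foxm1, the activator of mitosis genes (-0.79 starved and -1.01 in serum), E2f3 (-0.65 and -0.91) and E2f4 (-0.50 and -0.65). Rb1 was lower in starved cells by the test (-0.76).

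With serum, none of these further genes had a call in wild-type cells. In knockout cells, where 8.42% of all tested genes rose and 15.2% fell, 5 of the 42 further replication genes tested rose, Dbf4 (1.76), Slbp (0.97), Dck (1.27), Ctps (0.65) and Pole4 (0.54), and 7 fell, among them Timeless, a fork protection protein, which gave -1.95 (adjusted p = 0.0013). Slbp encodes the protein that binds histone mRNA, and Dck and Ctps act in nucleotide supply. Of the 58 further mitosis genes tested, Cks2 (1.04) and Wee1 (0.66), the kinase that restrains Cdk1, rose and 7 fell, with Bub3, Cenpt and Fzr1 at -0.65, -0.60 and -0.61. Among regulators Nfya (0.55) and Rb1 (0.68) rose and Lin37, of the MuvB core, fell (-0.52). The counts for the further mitosis genes lie below the shares over all genes, and those for the further replication genes near them. Without the filter 5 rose and 6 fell of the further replication genes, 2 and 4 of the further mitosis genes, and 1 and 0 of the regulators.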

How the data were processed

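Labelled total RNA was hybridised to 8 single-colour arrays. Each deposited value is a MAS5 signal, an intensity on a linear scale, which the authors computed per the submitters' processing notes; no software version was known here. The trimmed mean, leaving out 2% at each end, was 2500.6 to 2500.8 on all arrays. The table holds 22690 probe sets, of which 64 controls were left out; genes were named from the platform annotation given with it, where 20380 probe sets name 1 gene, 691 several and 1555 none. From the signals, log2(signal + 16) was taken and fitted with limma 3.58.1 (R 4.3.3; lmFit, eBayes with a mean-variance trend) as 4 group means over all 8 arrays, with 4 residual degrees of freedom, and 5 comparisons were drawn. The filter left 14947 of 22626 probe sets (66.1%). With 2 arrays against 2, an exact permutation test cannot go below p = 0.333, so none is given. The number of arrays limits the precision.

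The members and lists were chosen with earlier results of these data known. Values on every array are given for the members with the largest differences per comparison (at most 12 of each list), and other pathway genes are named by smallest p, at most 4 a list and comparison; genes of counts of 5 or fewer are also named. Fits were tested on simulated data. Same-numbered replicates deviated with correlations of 0.21 between the wild-type groups and 0.10 between the knockout groups. Across genotypes the correlations were -0.03 to 0.01. The main fit did not pair samples by set number, and blocks by set number, also within each genotype, are among the alternatives. Alternatives covered the pseudocount, scaling, filter, trend, probe set choice, block, fold rule and left-out arrays.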

Additional observations from a re-analysis of the deposited data

Results flagged for a closer look

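The serum change differed between genotypes by the interaction test for 5 probe sets of these pathways, each given as knockout minus wild type on the log2 scale. Over all 14947 tested probe sets, 1.61% were higher and 1.08% lower by this test. Of 39 tested probe sets of the replication members 2 were higher and 1 lower, and of 27 of the mitosis members 0 were called. Chek1 gave 1.68, with a rise in knockout cells from below the wild-type arrays; after serum its difference from wild type was 0.20 (adjusted p = 0.351). The other tested probe set of Chek1 did not pass. Fen1 gave 1.67 on its brightest probe set, but its other probe set did not pass, and the call was lost with no filter. Mcm7 gave -1.54 on a probe set that is not its brightest. Outside the member lists, Dbf4 gave 1.66 (adjusted p = 0.00501): it read 377 and 492 in starved and 1546 and 1443 in serum-treated knockout cells, and 3480 to 3922 on the wild-type arrays. Dck, deoxycytidine kinase, gave 1.23 (adjusted p = 0.0421), reading 288 and 371 in starved and 872 and 758 in serum-treated knockout cells and 2074 to 2420 on the wild-type arrays; its other tested probe sets gave 0.17 and 0.83 and did not pass, and without the filter the adjusted p was 0.081.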

How the results depend on the processing

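No call of a member reversed under any alternative; over all members, comparisons and alternatives, 1948 values called at first kept the call and 128 lost it, while 36 not called at first gained one. With the set number as a replicate block, 16 and 13 replication genes and 20 and 20 mitosis genes were called between genotypes, starved and in serum; with serum in wild-type cells 1 replication gene was called in place of 2. A block within each genotype, added after seeing the data, gave 7 replication genes with serum in knockout cells in place of 5, Mcm4 and Fen1 also rising, and 1 mitosis gene in the interaction, as did a 60th percentile filter and the mean over probe sets, against 0. Replication genes called with serum in wild-type cells numbered 1 with a pseudocount of 1, quantile normalization, only the 4 arrays compared or a rule of over 2-fold with no overlap, and 0 with no filter, no trend, the mean over probe sets or no probe sets with a letter suffix. In the interaction, replication calls went from 2 to 1 with no filter or no trend, where Chek1 kept its call. They also went to 1 with the mean over probe sets, where Fen1 kept its call and Chek1 lost it. Without suffixed probe sets they went to 0. The 2-fold rule gave 10 replication genes between starved genotypes in place of 16, and 2 replication and 0 mitosis genes with serum in knockout cells in place of 5 and 1. Leaving out 1 array gave 11 to 16 and 10 to 14 replication genes and 18 to 20 and 18 to 20 mitosis genes between genotypes, 0 to 2 replication genes with serum in wild-type cells, 3 to 5 replication and 1 to 2 mitosis genes with serum in knockout cells, and 1 to 2 and 0 to 1 in the interaction. Without both arrays of 1 set (added after seeing the data; knockout 1, knockout 2, wild type 1, wild type 2), the replication calls for serum in wild-type cells became 0, 0, 0 and 1, those of the interaction 0, 1, 0 and 1, and 3 with serum in knockout cells without knockout set 1. The cause was not tested. Cdc6, Tyms and Cenpe did not pass the filter on low signals.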
